A study of Mus musculus with 9 samples.

Results

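The cell cycle genes described here are 44 named genes of the mouse division cycle: 15 of S phase, 19 of mitosis, 5 G1 cyclins and kinases and 5 inhibitors of cyclin-dependent kinases. They were set by name, with older symbols accepted, but earlier results of these data were known when they were chosen. The arrays carried 72 probes for these genes, among 27666 named genes and transcripts in all, and 43 of the 44 were bright enough to be tested. Ttk, a kinase of the spindle checkpoint, was the exception: its sample signal was well above background on 1 of 9 arrays, while its reference signal was on all 9.

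RNA came from prostate tissue of BL6 mice and was profiled on 2-colour Agilent arrays, to ask how gene expression differs between 2 cell fractions separated by FACS (fluorescence-activated cell sorting). Marker-positive cells (3 arrays), which the labels call stem cells, were Lin- CD44+ CD133+ Sca-1+ CD117+. Marker-negative cells (6 arrays), called non-stem cells, were Lin- CD44- CD133- Sca-1- CD117-. The labels give no treatment, age or sex, and do not say whether each array had its own animals, so p-values reflect array-to-array spread, possibly technical alone. Sample RNA carried Cy5, and a commercial pool (Universal Mouse Reference, Stratagene) carried Cy3 on every array. Values below are log2 ratios of Cy5 over Cy3. A ratio is relative to the same gene in the pool, so ratios of 2 genes do not rank their transcript levels. Dyes were never swapped, so a difference from the pool and a dye effect cannot be told apart.

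A dividing cell copies its DNA in S phase and separates the copies in mitosis. D-type cyclins with Cdk4 and Cdk6 start the cycle in G1, cyclin E with Cdk2 opens S phase, and cyclins A and B with Cdk1 drive mitosis. E2F factors switch on many replication genes, whereas the DREAM and B-Myb complexes act on mitotic genes through a promoter element called CHR, often next to CCAAT boxes. Cip/Kip and Ink4 proteins hold the kinases back, and adult prostate epithelium is known as a tissue whose cells seldom divide. Universal reference pools of this kind are made from cultured lines, whose cells divide.

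Of the whole series, the following bears on these genes. Cy5 signal was well above background for 45.5% to 69.3% of probes on the marker-positive arrays and 47.5% to 69.5% on the marker-negative ones. Marker-positive replicate 3 stands apart: its log2 ratios correlated at 0.609 and 0.582 with replicates 1 and 2, which correlated at 0.923 with each other. With the marker-negative arrays it correlated at 0.483 to 0.677, and highest with replicates 4 (0.677) and 6 (0.676). It was also the one array on its slide, as was marker-negative replicate 5. Of the 4 surface proteins sorted on, 3 had higher transcripts in the marker-positive group (Ly6a by 3.93, Kit by 3.45 and Cd44 by 2.06, log2; limma adjusted p of 0.0132, 0.0461 and 0.0167), while that of CD133, Prom1, differed by -0.44 (adjusted p = 0.765). Against the prostate label, 9 luminal markers had an array median of -0.09 to 1.55 in marker-positive and 1.56 to 3.42 in marker-negative cells. In bulk samples such as these, fewer cells of a type and less RNA per cell cannot be told apart.

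Promoter windows show what the S phase and mitosis genes share beyond their names, and 3 are printed because their genes return below with the values on each array. RefSeq windows of GRCm38.p6 (250 bases before to 50 after the transcription start) were at hand for 35 members. Searched on both strands were CHR (TTTGAA or TTCGAA), the CCAAT box, and E2F sites (TTTGGCGC, TTTCCCGC, TTTGCCGC, TTTCGCGC, TTTGGCGG or TTTCCCGG). Each sequence gives the 250 bases before the start, 5′ to 3′ on the gene's own strand, with matches in capitals. ATTGG and TTCAAA are CCAAT and CHR read from the other strand. In Mcm6 the first E2F run holds 2 overlapping matches.
Mcm6, replicative helicase subunit, chr1:128359706-128359955, minus strand: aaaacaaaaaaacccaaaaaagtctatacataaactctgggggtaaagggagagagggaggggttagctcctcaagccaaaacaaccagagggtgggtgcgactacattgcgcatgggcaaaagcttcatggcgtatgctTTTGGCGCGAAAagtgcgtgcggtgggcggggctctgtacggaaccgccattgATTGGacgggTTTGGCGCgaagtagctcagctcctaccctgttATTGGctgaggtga
Cdc20, activator of the anaphase-promoting complex, chr4:118437344-118437593, minus strand: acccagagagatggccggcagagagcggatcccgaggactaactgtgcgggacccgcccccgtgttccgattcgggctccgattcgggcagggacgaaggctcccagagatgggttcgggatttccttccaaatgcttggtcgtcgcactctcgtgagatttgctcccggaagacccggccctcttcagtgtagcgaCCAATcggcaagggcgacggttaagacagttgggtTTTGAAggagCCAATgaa
Top2a, topoisomerase that untangles sister chromatids, chr11:99024190-99024439, minus strand: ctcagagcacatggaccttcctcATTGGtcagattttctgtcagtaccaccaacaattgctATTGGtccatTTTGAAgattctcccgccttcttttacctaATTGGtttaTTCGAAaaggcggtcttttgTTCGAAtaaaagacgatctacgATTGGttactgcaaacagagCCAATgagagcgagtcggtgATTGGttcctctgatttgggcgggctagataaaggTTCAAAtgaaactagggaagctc
The Mcm6 stretch holds 3 E2F and 2 CCAAT matches and no CHR. That of Cdc20 holds 1 CHR and 2 CCAAT matches, and that of Top2a 4 and 6.

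The same division held over the roles. CHR letters were found in 12 of 15 mitosis genes with a window (80.0%), in 2 of 13 S phase genes, and in 21.7% of 27025 genes with such windows. The mitosis genes without it were Birc5, Ccnb1 and Nek2. E2F letters were found in 6 of 13 S phase genes (Cdc6, Cdk2, Mcm3, Mcm5, Mcm6 and Mcm7), in 2 of 15 mitosis genes and in 4.55% of all genes. CCAAT was found in 14 of 15 mitosis genes, 9 of 13 S phase genes and 41.1% of all genes. None of 3 G1 genes or 4 inhibitors held CHR, and 1 inhibitor, Cdkn2a, held an E2F match. A match of letters is a description and does not show that a factor binds.

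In both sorted fractions most S phase and mitosis genes had log2 ratios to the reference pool well below 0. In marker-positive cells 32 of the 43 tested members were below the pool by limma (adjusted p under 0.05), where 18.8% of all 19847 tested genes were. In marker-negative cells 35 members were, where 26.5% of all genes were. The same 32 members were below in both groups, against 16.3% of all genes, and the further 3 in marker-negative cells were Cenpa, Ccnd3 and Cdkn2c. Above the pool was 1 member in each group, Cdkn1a, where 24.9% and 37.0% of all genes were; in marker-positive cells this count was 0 without replicate 1 or without replicate 2, and 2 without replicate 3. The median ratio over the members was -2.15 in marker-positive and -1.93 in marker-negative cells, while over all genes it was 0.20 and 0.18.

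**Figure D1:**
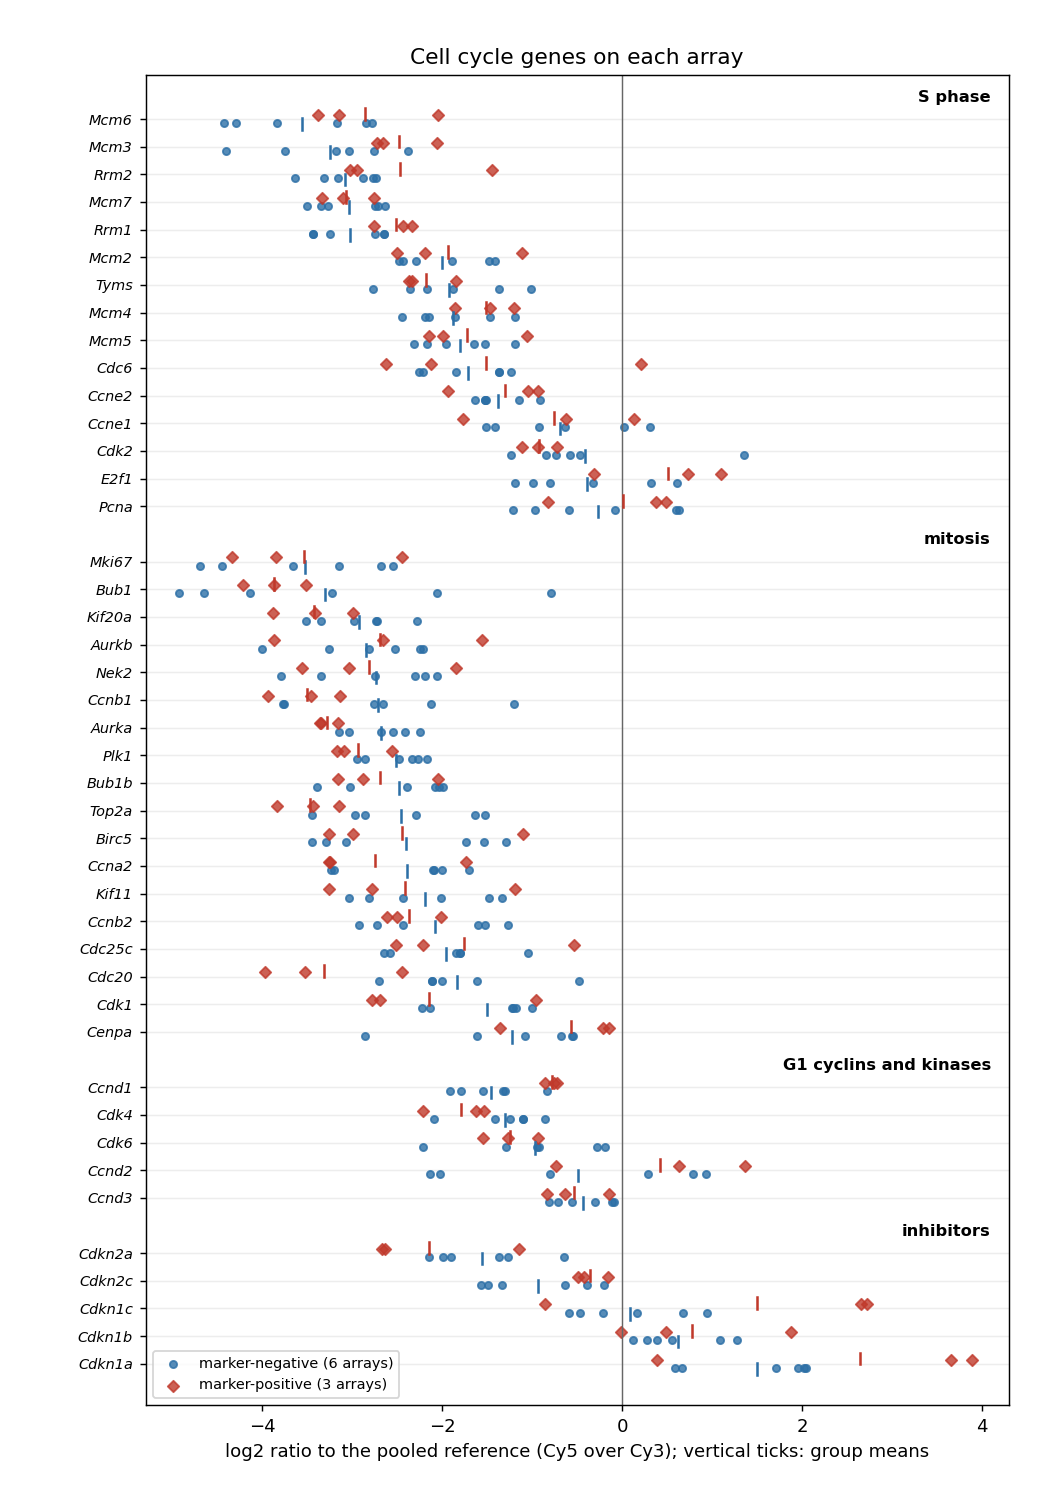
Each row is a cell cycle gene and each point an array: the x axis is the log2 ratio to the reference pool, red diamonds are the 3 marker-positive arrays, blue circles the 6 marker-negative arrays, and vertical ticks the group means. All 18 tested mitosis genes have both group means below 0, whereas 3 of 5 inhibitors have both above 0, and red and blue points overlap in every row but that of Aurka.

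Between the fractions, no cell cycle gene passed the test in either direction. By limma with Benjamini-Hochberg adjustment over all tested probes, 0 of 43 members were called higher in marker-positive cells and 0 lower, where 1.56% of all genes were called higher and 1.67% lower (3.23% in all). Without marker-positive replicate 3, which stands apart, 2 members were called higher, Cdkn1a and Cdkn1c, where 4.7% of all genes were, a share near that of the members. At an unadjusted p under 0.05 there were 3 members (Cdc20, Aurka and Ccnd1), or 6.98%, where 19.5% of all genes were. The groups did not overlap for 1 member, Aurka, where this held for 11.6% of all genes. Differences, given throughout as marker-positive minus marker-negative on the log2 scale, were above 0 for 20 members and below 0 for 23, and their median was -0.03 beside -0.01 for all genes. The missing calls do not show equal levels. The 95% interval stayed within a 2-fold change for 5 of 43 members, and for 6921 of all 19847 tested genes. The 5 were Mcm2, Mcm5, Mcm7, Ccne2 and Ccnd3, of which Ccne2 was well above background in Cy5 on only 3 of 9 arrays.

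**Figure D2:**
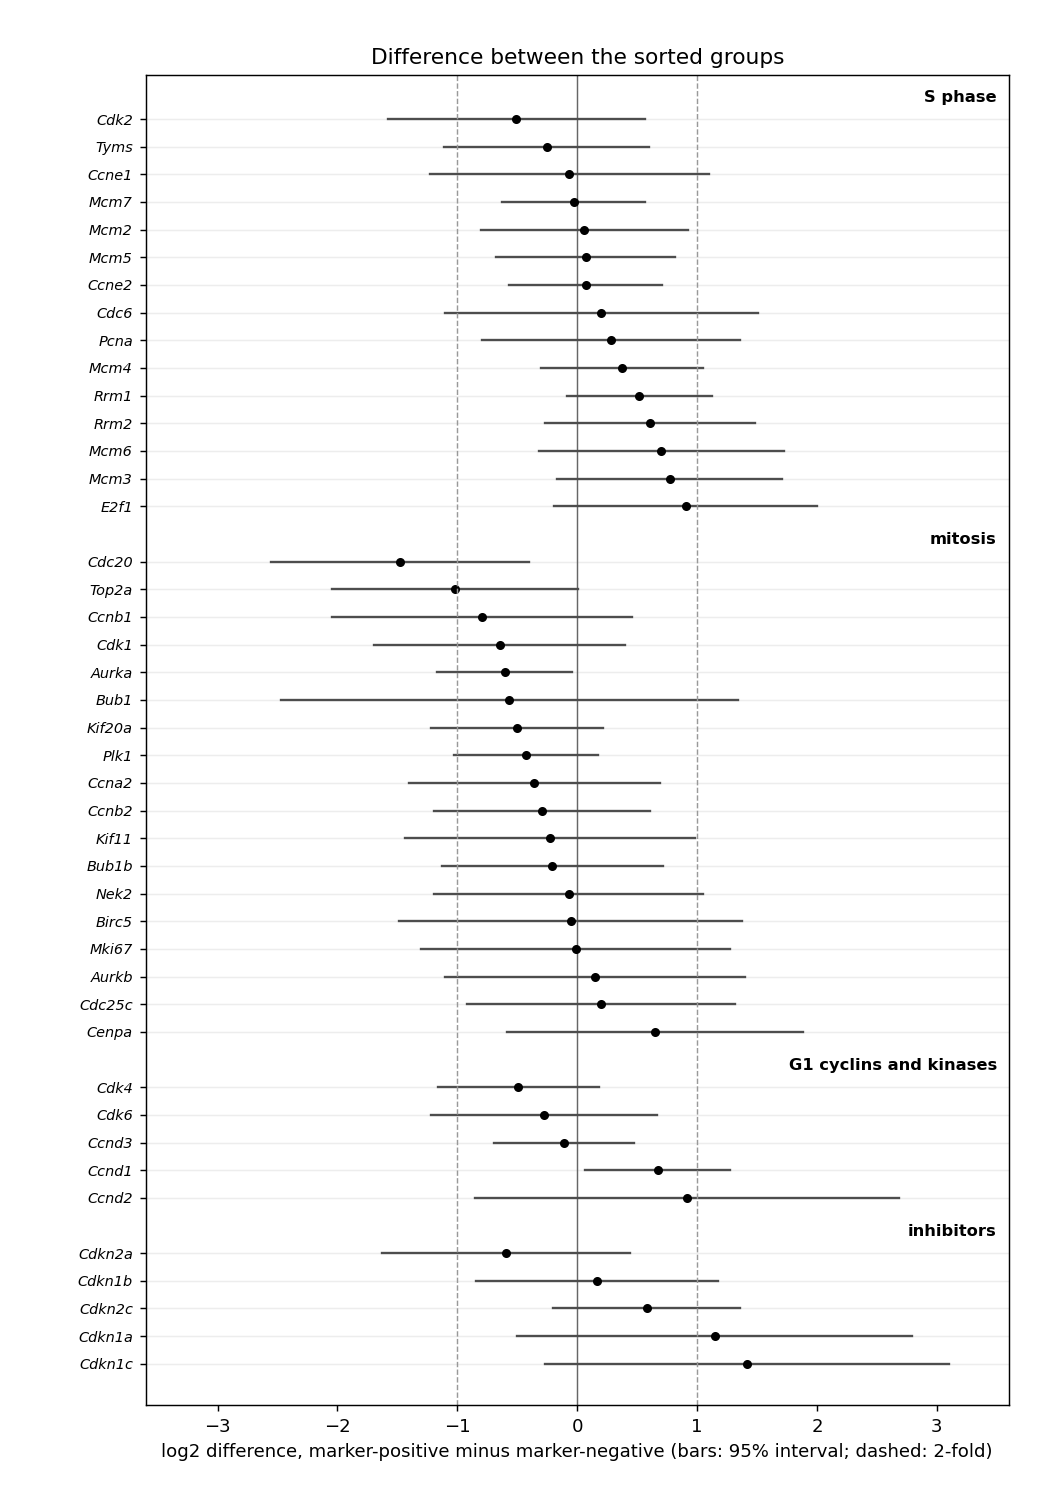
Points are log2 differences, marker-positive minus marker-negative, with 95% intervals from limma as bars, and dashed lines mark 2-fold changes. Mitosis genes lie mostly left of 0 (15 of 18) and S phase genes mostly right of it (11 of 15), and 40 of the 43 intervals cross 0.

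S phase genes were low on every array, and 11 of 15 were below the pool by limma in each group. The median ratio of the 15 genes was -2.19, -2.15 and -1.44 on marker-positive replicates 1 to 3 and ran from -2.36 to -1.42 on the marker-negative arrays, so the groups overlapped. The median difference of the list was 0.20, with values from -0.51 to 0.91. Differences were above 0 for 11 genes and below 0 for 4, where 48.8% of all genes were above 0. That count depends on the probe taken: the 2 tested probes of Ccne1 gave -0.06 and 0.36, and the 3 of Tyms ran from -0.28 to 0.28. Within slides 1 and 2 the difference of the list medians was -0.02 and -0.26. With slide as a block the median difference was 0.26. With single arrays left out it ran from 0.09 (marker-positive replicate 3 or marker-negative replicate 2) to 0.34 (marker-positive replicate 2). The members not shown to be below the pool in either group were Ccne1 (cyclin E1), its kinase partner Cdk2, E2f1 and Pcna.

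Subunits of the replicative helicase were among the S phase genes farthest below the pool. Mcm6 had ratios of -3.38, -3.15 and -2.05 on marker-positive replicates 1 to 3, and from -4.42 to -2.78 with a median of -3.51 on the marker-negative arrays. Replicate 3 was the highest of all 9 arrays, and the other 2 marker-positive arrays lay inside the marker-negative range. In fold terms the group means were 7.26-fold and 11.8-fold below the pool, and the difference between groups was 0.70 ± 0.46 (SE, n = 3 and 6; 95% interval -0.32 to 1.72; limma adjusted p = 0.445), or 0.30 without replicate 3. Mcm3, another subunit, had ratios of -2.66, -2.73 and -2.06 in marker-positive cells and of -4.40 to -2.38, median -3.11, in marker-negative cells. Its difference was 0.77 ± 0.42 (SE; limma adjusted p = 0.351), but its second tested probe gave -0.13, so the 2 probes disagreed in sign.

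Other S phase members followed no single order of the groups. Rrm2, the subunit of ribonucleotide reductase that sets deoxynucleotide supply, had ratios of -2.95, -3.03 and -1.44 on marker-positive replicates 1 to 3 and of -3.63 to -2.74, median -3.02, on marker-negative arrays. Its difference of 0.61 ± 0.39 (SE; limma adjusted p = 0.437) fell to 0.09 without marker-positive replicate 3, the highest array. Pcna, the sliding clamp of DNA polymerase, lay near the pool, at 0.49, 0.38 and -0.83 against -1.21 to 0.63 with a median of -0.33. The Pcna arrays of both groups thus straddled 0, and the difference was 0.28 ± 0.48 (SE; limma adjusted p = 0.809), or 0.70 without marker-positive replicate 3. E2f1, an activating E2F factor, had ratios of 0.74, -0.31 and 1.10 against -1.19 to 0.61 with a median of -0.56. Its difference was the largest of the S phase list, 0.91 ± 0.49 (SE; limma adjusted p = 0.350), while a second probe gave -0.06. Ccne2, cyclin E2, was well above background in Cy5 on only 3 of 9 arrays and Cdk2 on 4, so their ratios rest largely on signal near background.

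Mitosis genes were the farthest below the pool as a group: all 18 tested members were below it in marker-negative cells and 17 in marker-positive cells, Cenpa being the exception. The median ratio of the 18 genes was -3.26, -3.06 and -2.03 on marker-positive replicates 1 to 3, and ran from -3.31 to -1.90 on the marker-negative arrays. The median difference was -0.33, with values from -1.48 to 0.65, and with slide as a block it was -0.15. Differences were above 0 for 3 genes and below 0 for 15, where 48.8% of all genes were above 0. Within slides 1 and 2 the difference of the list medians was 0.06 and -0.60. With single arrays left out the median difference ran from -0.64, without marker-positive replicate 3, to -0.14, without marker-positive replicate 1. The groups overlapped.

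That spread moved with how much Cy5 signal an array had. On the 4 arrays with the most probes detected in Cy5 (66.2% to 69.5%: marker-positive replicates 1 and 2 and marker-negative replicates 1 and 2) the mitosis median lay between -3.31 and -2.84. On the 5 others (45.5% to 57.9%) it lay between -2.22 and -1.90. The split was the same over the 12 mitosis genes detected on all 9 arrays, at -3.21 to -2.80 and -2.17 to -2.03. Lymphocyte transcripts also moved: the median of 9 T and NK cell markers was 0.32, 0.32 and 0.85 in marker-positive cells and 0.95 to 4.69 in marker-negative cells. By limma 5 of the 9 were lower in marker-positive cells, where 1.67% of all genes were. Marker-negative replicates 4 and 6 were highest for these T and NK cell markers, at 4.41 and 4.69. These markers did not divide the arrays as the mitosis genes did: marker-positive replicate 3, at 0.85, lay below marker-negative replicate 2, at 0.95. The median of 4 B cell markers did, at -0.60 and -1.10 on marker-positive and -0.74 and -1.72 on marker-negative replicates 1 and 2. It was 0.86 on marker-positive replicate 3 and -0.16, 0.41, -0.27 and 0.86 on marker-negative replicates 3 to 6. The part of detection and of lymphocytes in the mitosis values was not tested.

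**Figure D3:**
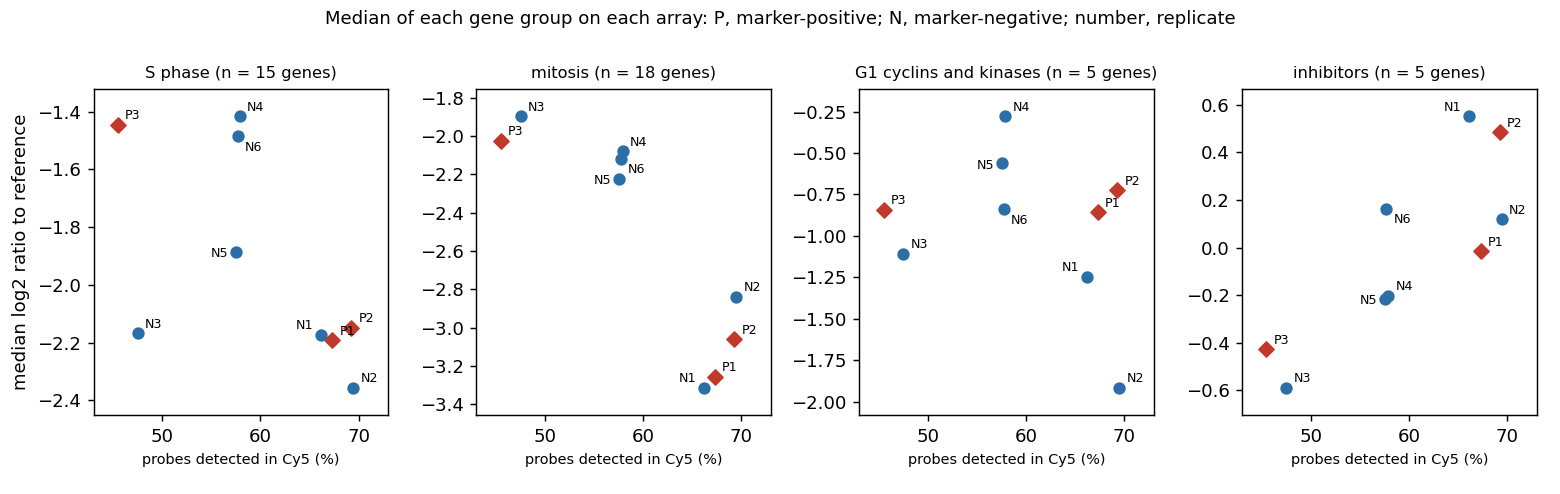
Each panel is a gene group; the x axis is the percent of all probes detected in Cy5 and the y axis the median log2 ratio of the group's tested genes on that array. Red diamonds (P1 to P3) are marker-positive and blue circles (N1 to N6) marker-negative arrays; in the mitosis panel the 4 arrays above 66% detection lie at -2.84 or lower and the 5 others at -2.22 or higher.

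Cdc20, which targets cyclin B and securin for destruction at anaphase, had the smallest adjusted p of the members. Its ratios were -3.53, -2.45 and -3.98 on marker-positive replicates 1 to 3 and ran from -2.70 to -0.48, median -2.06, on the marker-negative arrays. The groups overlapped through replicate 2, which was higher than marker-negative replicate 1, and marker-negative replicate 3 was the highest array. Group means were 9.97-fold and 3.58-fold below the pool. The difference was -1.48 ± 0.48 (SE, n = 3 and 6; 95% interval -2.56 to -0.40), with a limma adjusted p of 0.130. Its sign held in 20 of 20 alternative settings (-1.91 to -0.57, adjusted p 0.0958 to 0.651). The smallest size came with slide as a block, and within slides 1 and 2 the differences were -0.82 and -0.38. In the authors' deposited table, turned to the same direction, the Cdc20 difference was -1.45 with an adjusted p of 0.0414, the 1 of 72 member probes there below 0.05, where 5.58% of that table's rows were. The probe lies at chr4:117809370-117809429 of mm7, the build named in the scanner files.

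Top2a and Aurka had the next smallest p among the mitosis genes. Top2a, the type II topoisomerase printed above, had ratios of -3.43, -3.84 and -3.15 against -3.45 to -1.53 with a median of -2.57. Marker-positive replicate 2 was below every marker-negative array, the other 2 lay in the lower part of that range, and the signal of replicate 3 was not well above background. The difference was -1.02 ± 0.46 (SE; 95% interval -2.05 to 0.01; limma adjusted p = 0.257), but within slide 1 it was 0.01 and within slide 2 -1.59. Aurka, a centrosomal mitotic kinase, lies outside the naming rule and was picked after its values were seen, because its groups did not overlap. Its ratios were -3.36, -3.35 and -3.16 in marker-positive cells, all below the marker-negative range of -3.15 to -2.25 with a median of -2.62. The gap between the nearest arrays was far smaller than the range within the marker-negative group. The difference was -0.61 ± 0.25 (SE; limma adjusted p = 0.224).

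Mki67, whose protein Ki-67 is the usual stain for dividing cells, was 11.7-fold below the pool in marker-positive and 11.6-fold below it in marker-negative cells. Its ratios were -3.84, -4.33 and -2.45 on marker-positive replicates 1 to 3 and -4.70 to -2.54, median -3.40, on the marker-negative arrays. Marker-positive replicate 3 was the highest of all 9, and the others lay inside the marker-negative range. The difference was -0.01 ± 0.58 (SE; 95% interval -1.30 to 1.27; limma adjusted p = 0.994), an interval that leaves room for more than a 2-fold change either way. A second probe gave a difference of -0.51, and was 30.7-fold below the pool in marker-positive and 21.5-fold below it in marker-negative cells. Without marker-positive replicate 3 the first probe gave a difference of -0.56. Ccnb1, cyclin B1, had ratios of -3.94, -3.46 and -3.13 against -3.77 to -1.20 with a median of -2.71, and 3 of its 9 Cy5 signals were not well above background. Its difference was -0.80 ± 0.56 (SE; limma adjusted p = 0.483), with -0.53 and 0.22 from its other probes. Cenpa, the centromeric histone H3 variant, stood nearest the pool, at -0.21, -1.36 and -0.15 against -2.86 to -0.54 with a median of -0.88. Its difference of 0.65 ± 0.55 (SE; limma adjusted p = 0.570) was the highest of the mitosis list.

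G1 cyclins and kinases lay closer to the pool than S phase or mitosis genes: 3 of 5 were below it by limma in marker-positive and 4 of 5 in marker-negative cells. The median difference of the list was -0.11 and its mean 0.14, so the 2 differ in sign, and the median became 0.18 with each array centred on its median, 0.11 with array weights and 0.23 with slide as a block. Ccnd1, cyclin D1, which links growth signals to the cycle, was the most even gene of the list in marker-positive cells, at -0.86, -0.72 and -0.76 (-0.78 ± 0.07, SD, n = 3). On marker-negative arrays it ran from -1.92 to -0.84 with a median of -1.44 (-1.45 ± 0.39, SD, n = 6). Replicate 6 of that group alone reached the marker-positive range. The difference was 0.67 ± 0.27 (SE; 95% interval 0.07 to 1.28; limma adjusted p = 0.209), with 0.94 and 0.88 within slides 1 and 2. With array weights it was called, at 0.76 (adjusted p = 0.0306), where 10.8% of all genes were called higher and 10.9% lower.

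Ccnd2, cyclin D2, varied most among these genes: 0.64, 1.37 and -0.74 in marker-positive cells and -2.14 to 0.94, median -0.26, in marker-negative cells. Its arrays thus lay on both sides of the pool in each group, and the difference was 0.92 ± 0.79 (SE; limma adjusted p = 0.579). Cdk4, a partner kinase of D cyclins, was below the pool on all arrays, at -1.54, -1.63 and -2.22 against -2.09 to -0.86 with a median of -1.18. Its difference was -0.49 ± 0.30 (SE; limma adjusted p = 0.416). Cdk6, the related kinase, had ratios of -0.94, -1.26 and -1.54 against -2.21 to -0.19 with a median of -0.94, and a difference of -0.27 ± 0.42 (SE; limma adjusted p = 0.784) that turned to 0.14 with slide as a block. Without marker-positive replicate 3 the differences were -0.28 for Cdk4 and -0.13 for Cdk6.

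Of the inhibitors, by the brightest probe of each, the 3 Cip/Kip genes had group means above the pool and the 2 Ink4 genes below it. By limma only Cdkn1a was above it. Cdkn1a, encoding p21, the Cip/Kip inhibitor that p53 induces, was above the pool in both groups, 6.26-fold in marker-positive cells (limma adjusted p = 0.00765) and 2.83-fold in marker-negative cells (adjusted p = 0.0120); with arrays centred on their medians neither passed. Its ratios were 3.89, 3.66 and 0.38 on marker-positive replicates 1 to 3 and ran from 0.59 to 2.05 with a median of 1.84 on the marker-negative arrays. Replicates 1 and 2 were higher, and replicate 3 lower, than every marker-negative array. The difference was 1.15 ± 0.74 (SE, n = 3 and 6; 95% interval -0.50 to 2.79; limma adjusted p = 0.437).

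Cdkn1c, encoding p57, a Cip/Kip inhibitor from an imprinted gene, showed the same arrangement, with ratios of 2.65, 2.72 and -0.86 against -0.59 to 0.95 and a median of -0.03. Replicate 3 was again the lowest of all arrays, and its Cy5 signal was not well above background. The difference was 1.42 ± 0.75 (SE; 95% interval -0.27 to 3.11; limma adjusted p = 0.340). Marker-positive replicate 3 decided both results. Without it Cdkn1a differed by 2.28 ± 0.46 (SE; adjusted p = 0.0241) and Cdkn1c by 2.60 ± 0.45 (SE; adjusted p = 0.0132), and 4.7% of all genes were called higher and 2.52% lower. With array weights, where replicate 3 had a weight of 0.241 and replicates 1 and 2 of 2.49 and 2.48, they differed by 2.02 (adjusted p = 0.0124) and 2.26 (adjusted p = 0.00805). Slides 1 and 2 hold replicates 1 and 2 beside marker-negative arrays, and the differences inside them were 1.85 and 2.38 for Cdkn1a and 1.71 and 2.61 for Cdkn1c. With slide as a block the differences were 2.15 for Cdkn1a and 2.22 for Cdkn1c, and neither passed (adjusted p of 0.162 and 0.135). These differences rest on slides 1 and 2 alone and leave out replicate 3, so they are no separate check on the values inside the slides.

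Markers of fibroblasts, endothelium and basal epithelium separated the same arrays, and those of smooth muscle did not. The median of 6 endothelial markers was 3.63, 5.46 and 0.51 on marker-positive replicates 1 to 3 and 0.29 to 1.12 on the marker-negative arrays. For 6 fibroblast markers these values were 1.06, 0.48 and -3.25 against -3.93 to -1.47, and for 5 basal epithelial markers 2.93, 3.13 and 0.75 against -0.17 to 2.37. By limma 1 endothelial, 0 fibroblast, 0 smooth muscle and 1 basal marker were higher in marker-positive cells, where 1.56% of all genes were. At an unadjusted p under 0.05 the counts were 5, 2, 1 and 2 in either direction, where 19.5% of all genes were. Mast cell markers did not follow this division, with medians of 4.31, 4.11 and 5.02 against 0.01 to 2.21. The part of any of these cells in the Cdkn1a and Cdkn1c values was not tested.

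**Figure D4:**
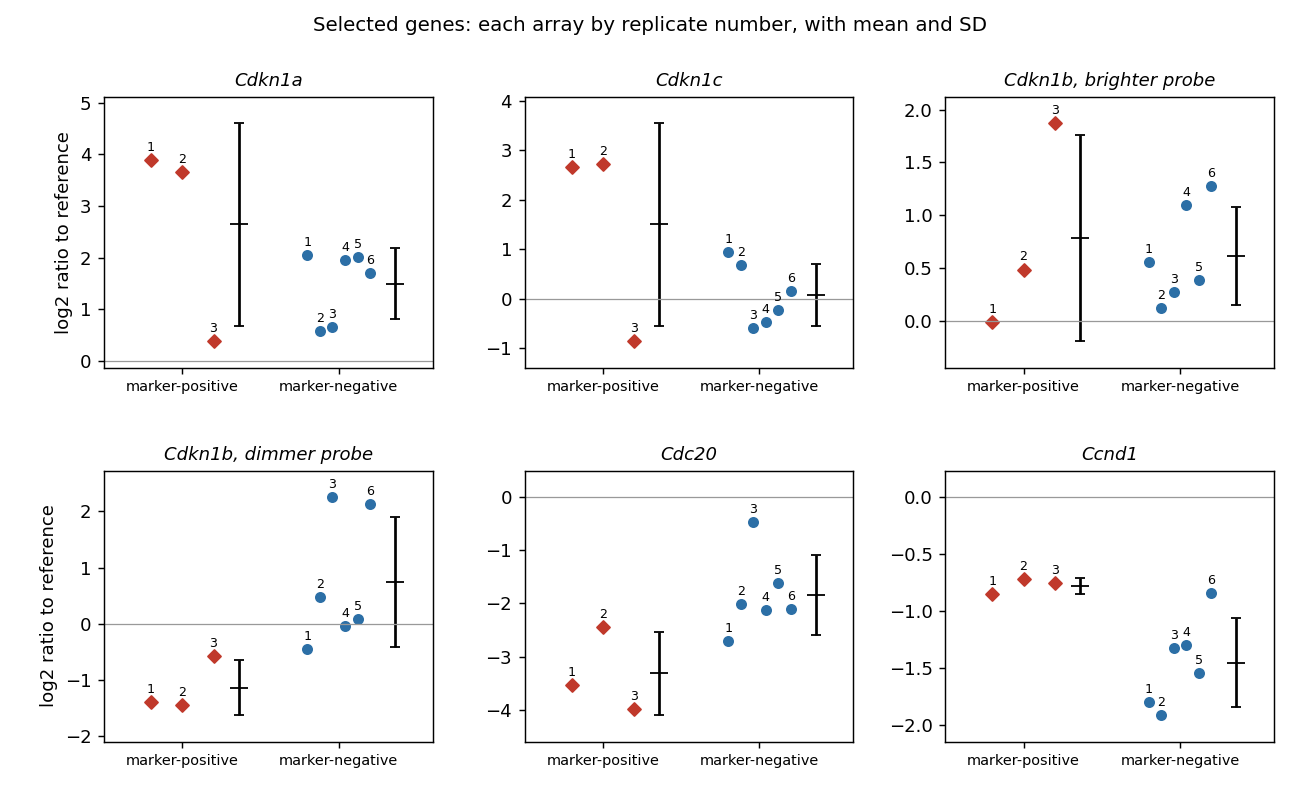
Log2 ratio to the reference pool on each array for 5 genes, one of them by 2 probes; red diamonds are marker-positive and blue circles marker-negative arrays, numbers are replicates, and bars give the group mean ± SD (n = 3 and 6). Marker-positive replicate 3 lies below every marker-negative array for Cdkn1a and Cdkn1c, and the 2 Cdkn1b probes order the groups differently. Each panel has its own y axis.

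Cdkn1b, encoding p27, which holds Cdk2 in check in resting cells, gave a different answer with each probe; it too lies outside the naming rule and was picked after its values were seen. The brighter probe (chr6:134939519-134939578, mm7) read -0.01, 0.48 and 1.87 on marker-positive replicates 1 to 3 and 0.12 to 1.28, median 0.47, on marker-negative arrays. Its difference was 0.17 ± 0.45 (SE; limma adjusted p = 0.892). The dimmer probe (chr6:134935407-134935465, mm7) read -1.39, -1.44 and -0.56 against -0.45 to 2.26, and its groups did not overlap. That difference was -1.88 ± 0.65 (SE; limma adjusted p = 0.148). The dimmer probe was printed on 10 spots, whose SD within an array was at most 0.132. The brighter probe had no repeat spots, so the part of spot noise in the gap between probes was not tested.

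The Ink4 genes lay at or below the pool. Cdkn2a, whose locus encodes p16 and p19Arf, had ratios of -2.64, -2.67 and -1.14 against -2.15 to -0.64 with a median of -1.64. Replicates 1 and 2 were below every marker-negative array and replicate 3 inside their range, and the difference was -0.59 ± 0.46 (SE; limma adjusted p = 0.530), or -1.10 without replicate 3 (adjusted p = 0.167). It was below the pool in both groups, by 4.44-fold and 2.94-fold. Cdkn2c, encoding p18, had ratios of -0.49, -0.16 and -0.43 against -1.57 to -0.20 with a median of -0.98. Marker-positive replicate 2 was above every marker-negative array and the other 2 lay inside that range, and the difference was 0.58 ± 0.35 (SE; limma adjusted p = 0.405). Over the 5 inhibitors the median difference was 0.58, with 4 above 0 and 1 below.

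Further genes of the cycle came from lists set by function, and by limma 0 of them were called between the groups, where 3.23% of all genes were. The 46 tested replication genes outside the 44 split into 21 differences above 0 and 25 below. In marker-positive cells 37 were below the pool and in marker-negative cells 43, where 18.8% and 26.5% of all genes were. Chaf1b, a chromatin assembly subunit, came nearest at 1.16 ± 0.29 (SE; limma adjusted p = 0.0592), followed by the replication kinase Cdc7 at -1.35 (adjusted p = 0.155) and the initiation factor Mcm10 at -0.66 (adjusted p = 0.314). Of 59 further mitosis genes 0 were called, and 49 and 54 were below the pool. Mybl2, the B-Myb factor of mitotic promoters, differed by -1.13 (adjusted p = 0.101) and the condensin subunit Smc2 by 0.99 (adjusted p = 0.293). Wee1, which restrains Cdk1, differed by -0.89 ± 0.41 (SE, limma adjusted p = 0.261). It had no marker-positive array with Cy5 well above background, so the size of its difference is uncertain.

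Of 19 further E2F factors and G1 regulators, 0 were called, and the repressor E2f7 came nearest at 1.76 ± 0.43 (SE; limma adjusted p = 0.0570), ahead of Mnat1, of the Cdk-activating kinase, at -0.96 (adjusted p = 0.125), and Cdk8 at -0.91 (adjusted p = 0.427). Of 28 further inhibitor and quiescence genes, again 0 were called. In marker-positive cells 10 were above the pool and in marker-negative cells 12, where 24.9% and 37.0% of all genes were. The factor Klf4 differed by 1.33 (adjusted p = 0.0961), Foxo1 by 1.11 (adjusted p = 0.135) and the stress-response gene Gadd45b by 1.68 (adjusted p = 0.156). Unadjusted p was under 0.05 for 2 of the replication, 1 of the mitosis, 2 of the E2F and G1, and 5 of the quiescence genes. Among all genes this held for 19.5%. The list medians were -0.10 for replication, -0.19 for mitosis, -0.16 for E2F and G1, and 0.03 for quiescence genes.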

How the data were processed

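RNA was measured on 9 arrays of design 014868. Per the labels' protocols, kits were PicoPure for isolation, MessageAmp II for amplification and Quick Amp for labelling. The deposited scanner files hold raw spot intensity values with local background, per the file headers from Feature Extraction 10.7.3.1 (10.7 in the submitters' processing notes). The authors' deposited table lists a log2 difference, p-values, limma score columns and a stem over non-stem fold; its log2 column runs the other way and was turned. Its normalization is not stated in what was used here.

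With limma 3.58.1 (R 4.3.3), spot means were corrected by normexp (offset 50) and normalized by loess in each array; control and outlier spots had weight 0, outliers were then dropped and each probe's spots averaged. Of 41174 probes, 28334 were tested: those bright enough in Cy5 on 3 arrays or more. A gene took its brightest tested probe. Ratios of both groups were fitted together (eBayes with trend and robust estimation, two-sided), and adjusted p-values run over all tested probes, with 0.05 as the threshold. The procedure was tested on simulated data. The number of arrays limits the precision. Members and lists were chosen with earlier results of these data known. The rule for named genes took, per role, the 4 members with the largest absolute difference, with Mki67, Pcna, Ccnd1 and Cdkn1a, and for other lists those with the smallest p. Symbols were updated through the GRCm38.p6 RefSeq table; 2 Cdk1 probes carried an older symbol. Probe coordinates are those of mm7 in the files, promoter coordinates those of GRCm38.p6, and none was converted. Both groups shared slide 1 (replicate 1 of each) and slide 2 (replicate 2 of each and marker-negative replicate 4). With slide as a fixed block, the group difference therefore rests on these arrays alone, without marker-positive replicate 3. Alternatives changed the background correction, normalization, filter, variance model, array weights, slide block, probe rule and each array.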

Additional observations from a re-analysis of the deposited data

Results flagged for a closer look

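Cdk2 on marker-negative replicate 5 stood far from the other arrays of its group, with a log2 ratio to the pool of 1.36 where the next highest array read -0.47. The gap made up 0.703 of the group's range. Its Cy5 signal was well above background on that array. Among 47 values checked this way it was the only one so far apart, and chance alone marks about 1 group in 20.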

How the results depend on the processing

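The counts of members lower in marker-positive cells (0) and below the pool kept within 1.5 times their value in all settings tried, and the medians of S phase, mitosis, G1 and inhibitor genes moved by less than the spread between arrays. Members higher numbered 3 with array weights and 0 to 2 with each array left out, 2 of them without marker-positive replicate 3. Among all genes, 139 were higher and 85 lower with median centring, 2137 and 2162 with array weights, and 127 and 20 with slide as a fixed block. With each array left out, 96 to 932 were higher and 87 to 500 lower; the lowest counts came without marker-positive replicate 1 or 2 and the highest without replicate 3. Members above the pool in marker-positive cells were 0 with median centring, 2 with array weights, 2 with the fixed block and 0 to 2 with arrays left out. In marker-negative cells they were 0 with median centring, 1 to 2 with arrays left out, and 2 with array weights, with the fixed block, with the mean of probes and with detection in both channels on all arrays. The sign turned for Cdk6 with the fixed block (0.14), for Cdkn1b with array weights (-0.26), the fixed block (-0.31), the mean of probes (-0.86) and an array left out (-0.38 to 0.56), and for Mki67 with median centring (0.31), slide as a random block (0.00064) and arrays left out (-0.56 to 0.38). The cause was not tested. Replicate numbers only reflect accession order and pair no arrays, so the blocked fits used the slide.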
